A study of Mus musculus with 4 samples.

Results

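The genes described here encode the tricarboxylic acid (TCA) cycle, the enzymes that feed pyruvate into it or refill it (anaplerosis), and the shuttles that carry cytosolic NADH electrons to mitochondria. A list of 41 gene symbols was matched to probesets that the array's annotation pairs with a single symbol, and the brightest probeset by mean over the 4 arrays stood for a gene with several. This found 40 of the 41 among 22180 measured genes, and Mpc2, the partner of Mpc1 in the mitochondrial pyruvate carrier, was not analysed here. The 40 were 17 cycle enzyme subunits, 4 genes of pyruvate entry, 11 of anaplerosis and pyruvate cycling, and 8 of the NADH shuttles. RNA came from pancreatic islets of 2 groups of C57BL/6 mice, 5 to 6 months old: mice with the GPR41 transgene, labelled 41 Tg (Tg, 2 arrays), and wild-type littermates (WT, 2 arrays). Islets of both groups had been incubated in RPMI medium. The labels name neither the promoter of the transgene nor the line, and although they call the arrays biological replicates, they leave unsaid how many mice gave the islets of each. The p-values therefore rest on the spread between the 2 arrays of each group, which the model draws towards that of all genes. Values are log2 intensities and differences are Tg minus WT on that scale.

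The TCA cycle oxidises acetyl-CoA in mitochondria and passes its electrons to the respiratory chain as NADH and FADH2. In beta cells, glucose-derived pyruvate enters the cycle both through pyruvate dehydrogenase and through pyruvate carboxylase, and the ATP made from it closes potassium channels and starts insulin secretion. Cycle intermediates that leave the mitochondrion are turned back into pyruvate in the cytosol, which yields NADPH. Beta cells carry little lactate dehydrogenase, so the glycerol phosphate shuttle and the malate-aspartate shuttle reoxidise much of the NADH that glycolysis makes.

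Array medians lay between 6.43 and 6.47, and Ffar3, the mouse gene of GPR41, read 11.02 and 10.98 in Tg islets, against 7.09 and 6.47 in WT islets. Of all genes, 199 passed limma at a Benjamini-Hochberg adjusted p under 0.05. All 9 measured beta cell markers and all 8 measured markers of the other endocrine cells were on the arrays at 6.42 or more, with Ins2 at 12.52 and 12.59 in Tg islets and at 12.57 and 12.46 in WT islets. Acinar markers, of the enzyme-secreting cells around the islets, were also present, and their mean was 11.28 and 10.97 on the Tg arrays, against 10.61 and 11.61 on the WT arrays.

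No gene of the 40 passed limma at an adjusted p under 0.05, a limit that 0.897% of all genes passed, and most differed little between the groups. Lower means in Tg islets were found for 30 of the 40 genes (75%), against 54.3% of all genes, with a median difference of -0.09, against -0.02 over all genes. The groups did not overlap in 23 of the 40 (57.5%), against 42.3% of all genes. In 18 of these (45% of the 40) both Tg arrays lay below both WT arrays, against 23.7% of all genes, and in the other 5 (12.5%) both lay above, against 18.6%. Bright genes as a whole leaned the same way: of the 11090 genes above the median level, where 38 of the 40 lay, 6658 were lower in Tg, with a median of -0.04, and 3372 (30.4%) were lower without overlap. At an unadjusted p under 0.05 the list held 4 genes (10%), against 11.8% of all genes. These were Gpd2 and Slc25a10, lower in Tg, and Me1 and Gpd1, higher in Tg. In whole islets, fewer cells of a type and less RNA per cell cannot be told apart.

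The differences were small in absolute terms, and the intervals around them bound how large they can be under the model. The 95% confidence interval lay within a 1.5-fold change in either direction for 36 of the 40 genes, the exceptions being Gpd2, Gpd1, Me1 and Me3, and within 2-fold for all 40. Of all 22180 genes, 17085 lay within 1.5-fold and 21150 within 2-fold. Small differences were not particular to the list: the median absolute difference was 0.115 for the 40 genes and 0.115 over all genes. Standard errors ranged from 0.10 to 0.17. Replicates of these genes lay close together, with a median gap of 0.07 between the Tg arrays and 0.08 between the WT arrays, against 0.12 and 0.14 over all genes. The larger of the 2 replicate gaps exceeded the group difference in 23 of the 40 genes (57.5%), against 69.7% of all genes. The number of genes lower in Tg was 23 without WT replicate 1 and 33 without Tg replicate 2. Of the 40 genes, 27 were higher on WT replicate 1 than on WT replicate 2, against 12313 of all 22180 genes. On Tg replicate 1, 14 of the 40 were higher than on Tg replicate 2, against 10748 of all genes.

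**Figure D1:**
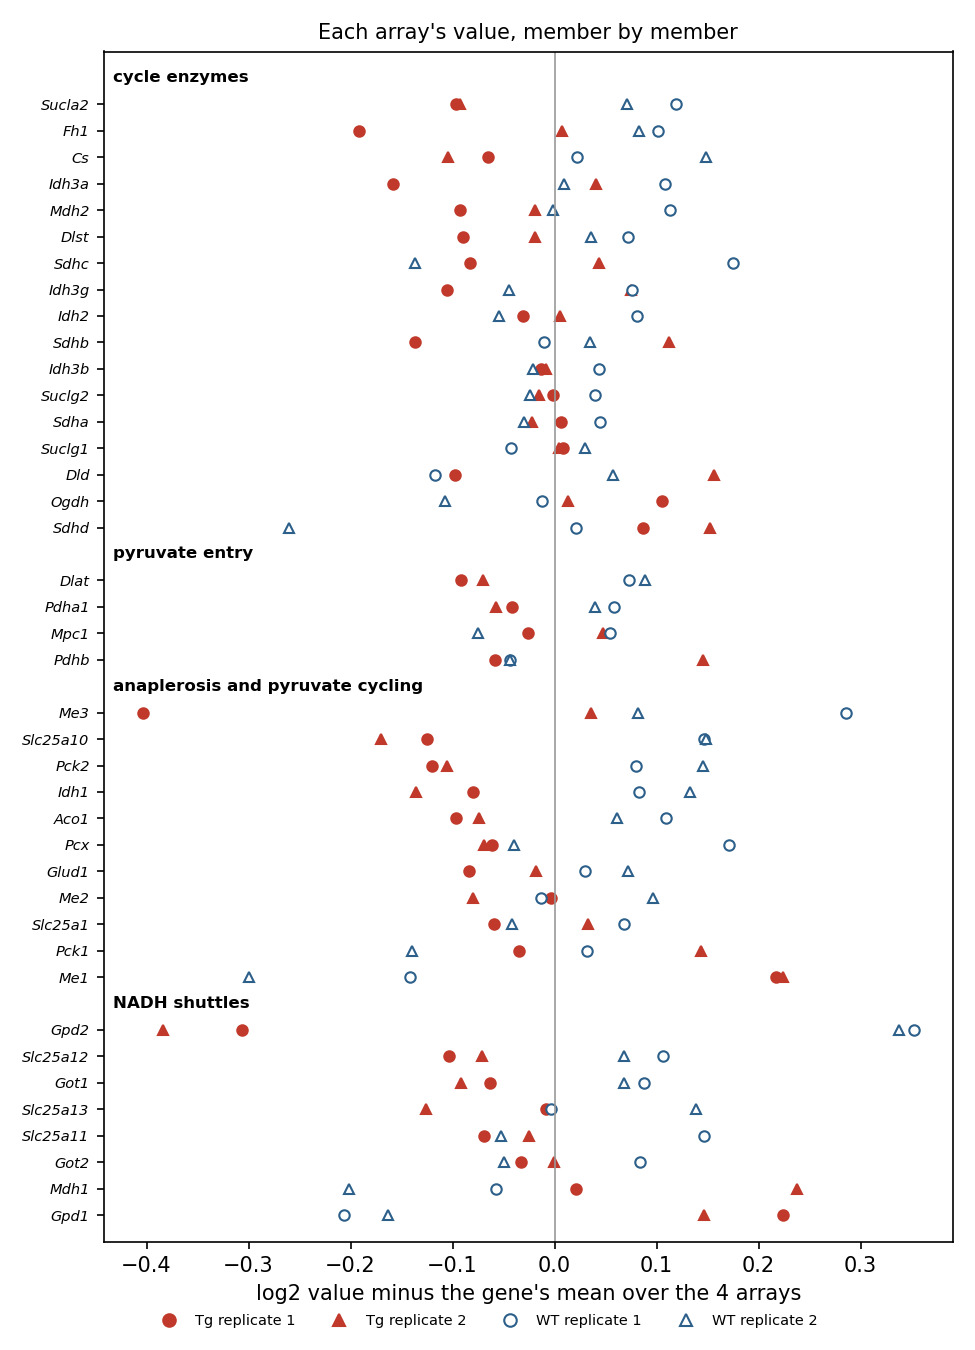
Log2 value of each gene on each array, minus that gene's mean over the 4 arrays, for the 40 measured genes by class (filled red, Tg; open blue, WT; circles, replicate 1; triangles, replicate 2). Gpd2 and Me1 show the widest gaps between the groups, in opposite directions, while for most cycle enzymes Tg and WT arrays intermingle.

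The 2 enzymes of the glycerol phosphate shuttle had differences of opposite sign, the positive one resting on the probeset chosen. Gpd2, the mitochondrial glycerol-3-phosphate dehydrogenase that hands electrons to the respiratory chain, read 8.68 and 8.60 in Tg islets, against 9.34 and 9.32 in WT islets. Its groups did not overlap, and their distance was far wider than either replicate gap. The difference of -0.69 (SE 0.10, 95% interval -0.94 to -0.44) corresponds to a 1.61-fold lower level in Tg, and its limma adjusted p over all genes was 0.059. It was the largest difference of the 40 genes and ranked 236 of 22180 by p. Gpd2 passed with a variance trend (adjusted p = 0.032), with a robust trend (0.021) and among genes above the median level only (0.033). In the other 11 alternatives it did not pass. Its adjusted p was 0.054 to 0.064 with the other probeset rules and normalizations, 0.208 with the replicate block and 0.472 without moderation. With an array left out, the difference lay between -0.73 and -0.65.

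Gpd1, the cytosolic enzyme that uses NADH to reduce dihydroxyacetone phosphate, read 8.82 and 8.74 in Tg islets, against 8.39 and 8.43 in WT islets. Both Tg arrays were the higher ones. The difference was 0.37 (SE 0.10, 95% interval 0.11 to 0.63), with an unadjusted p of 0.012 and a limma adjusted p of 0.252. A second, dimmer probeset of Gpd1 read 5.60 and 5.66 in Tg islets and 5.86 and 5.69 in WT islets, a difference of -0.14 in the other direction. With the mean of both probesets, the difference of Gpd1 was 0.11 (unadjusted p = 0.304). Its unadjusted p stayed under 0.05 in 12 of 14 alternatives. Without Tg replicate 1 the unadjusted limma p was 0.073.

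The malate-aspartate shuttle pairs cytosolic and mitochondrial malate dehydrogenases and aspartate aminotransferases through 2 kinds of carrier. Mdh1, the cytosolic malate dehydrogenase, read 10.34 and 10.56 in Tg islets, against 10.27 and 10.12 in WT islets. The groups did not overlap, but the Tg arrays lay 0.22 apart, close to the difference of 0.26 (95% interval -0.05 to 0.57, limma adjusted p = 0.503). Got1, the cytosolic aspartate aminotransferase, read 11.55 and 11.53 in Tg islets, against 11.70 and 11.68 in WT islets (difference -0.16, 95% interval -0.40 to 0.09, adjusted p = 0.629). Slc25a12, the aspartate-glutamate carrier also called aralar, read 10.74 and 10.77 in Tg islets, against 10.95 and 10.91 in WT islets (difference -0.17, 95% interval -0.42 to 0.08). For both genes the Tg arrays lay below the WT arrays with narrow replicate gaps.

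Its paralogue Slc25a13, or citrin, read 7.29 and 7.17 in Tg islets, against 7.30 and 7.44 in WT islets (difference -0.14, 95% interval -0.42 to 0.15). Here the closest Tg and WT arrays all but touched. Slc25a11, which exchanges malate for alpha-ketoglutarate, read 10.54 and 10.59 in Tg islets and 10.76 and 10.56 in WT islets (difference -0.09, 95% interval -0.38 to 0.19), and the groups overlapped. Got2, the mitochondrial aminotransferase, differed by -0.03, and its dimmer second probeset by -0.03. The median difference of the 8 shuttle genes was -0.11, with 6 of 8 (75%) lower in Tg, against 54.3% of all genes, and it was -0.07 without WT replicate 1.

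**Figure D2:**
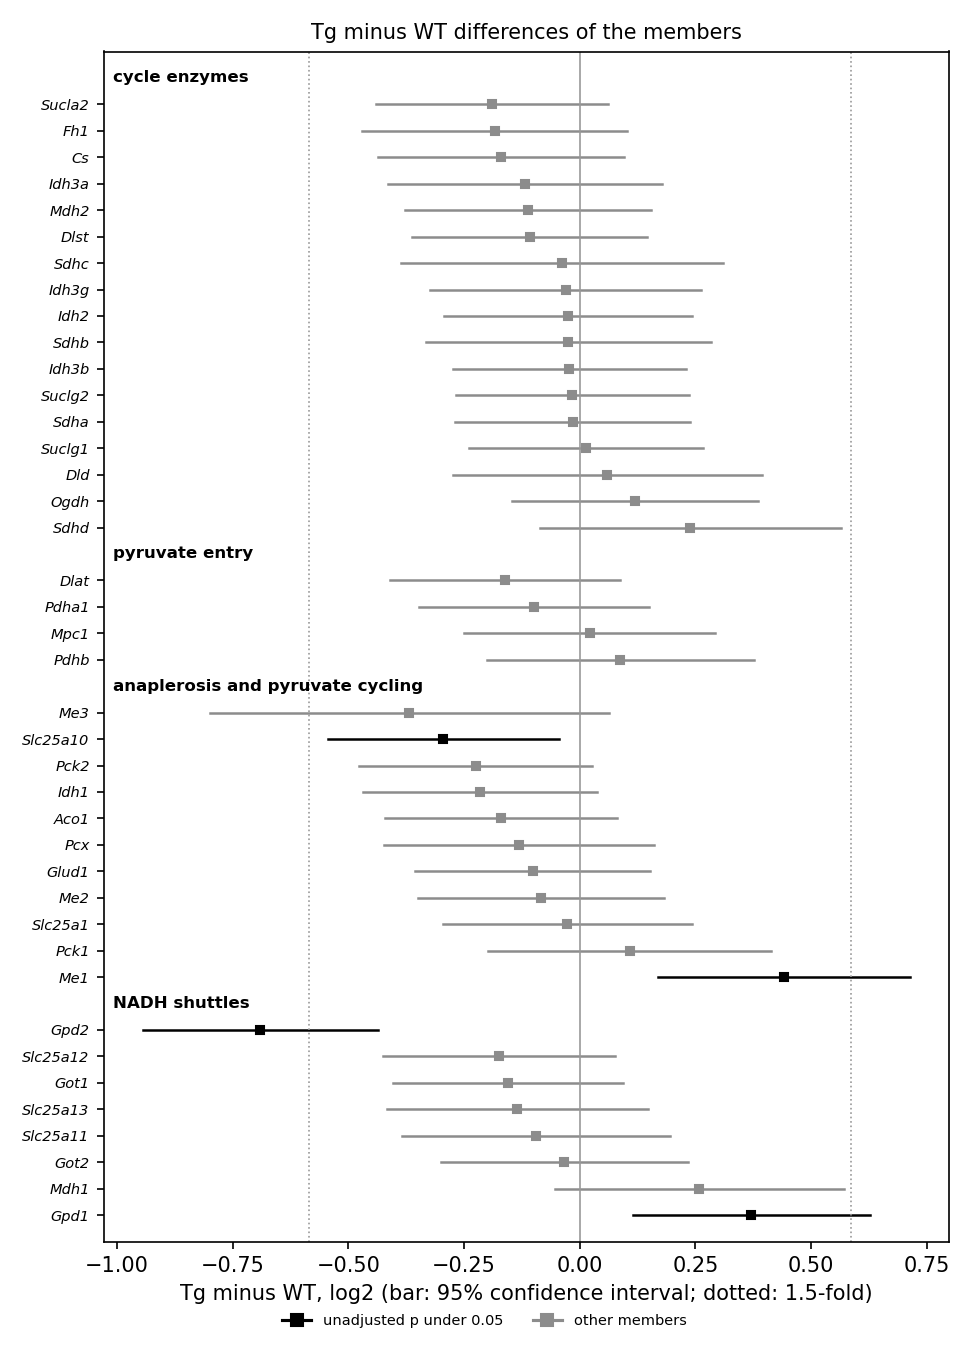
Tg minus WT difference (log2, squares) and its 95% confidence interval (bars) from limma for the 40 genes by class; dotted lines mark a 1.5-fold change and black marks an unadjusted p under 0.05. Gpd2, Slc25a10, Me1 and Gpd1 are black, and only the intervals of Gpd2, Gpd1, Me1 and Me3 reach past the dotted lines.

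Anaplerosis and pyruvate cycling held the largest positive difference of the 40 genes, while most of its other genes were lower in Tg. Me1, the cytosolic malic enzyme that turns malate into pyruvate and makes NADPH, read 10.15 and 10.16 in Tg islets, against 9.79 and 9.63 in WT islets. Both Tg arrays were higher by more than the gap between the WT arrays. The difference was 0.44 (SE 0.11, 95% interval 0.17 to 0.71), or 1.36-fold higher in Tg, with an unadjusted p of 0.0078 and a limma adjusted p of 0.203. It kept an unadjusted p under 0.05 in all 14 alternatives, with differences between 0.36 and 0.52. The mitochondrial malic enzymes were on the other side of 0. Me2, which uses NAD, differed by -0.08, with overlapping groups. Me3, which uses NADP, read 5.43 and 5.87 in Tg islets and 6.12 and 5.92 in WT islets, a difference of -0.37 with the widest interval of the 40 (-0.80 to 0.06). Me3 lay below the median level of all genes, and its dimmer second probeset differed by -0.10. Its difference was -0.15 without Tg replicate 1 and -0.59 without Tg replicate 2.

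Slc25a10, the dicarboxylate carrier that exports malate and succinate in exchange for phosphate, read 7.16 and 7.11 in Tg islets, against 7.43 and 7.43 in WT islets. Both Tg arrays were lower, with replicate gaps far smaller than the difference of -0.30 (SE 0.10, 95% interval -0.54 to -0.05; unadjusted p = 0.028, limma adjusted p = 0.349). The unadjusted p stayed under 0.05 in 10 of 14 alternatives and was 0.069 to 0.120 with an array left out. Slc25a1, the citrate carrier, read 11.15 and 11.24 in Tg islets and 11.28 and 11.17 in WT islets, and the groups overlapped (difference -0.03, 95% interval -0.30 to 0.24). Its sign turned without WT replicate 1 (0.03) and without Tg replicate 1 (0.02).

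Pcx, pyruvate carboxylase, which makes oxaloacetate from pyruvate, read 9.61 and 9.61 in Tg islets, against 9.85 and 9.64 in WT islets. The gap between the WT arrays, 0.21, was wider than the difference of -0.13 (95% interval -0.42 to 0.16, limma adjusted p = 0.753). Pck2, the mitochondrial phosphoenolpyruvate carboxykinase, read 9.75 and 9.76 in Tg islets, against 9.95 and 10.01 in WT islets (difference -0.23, 95% interval -0.48 to 0.03, adjusted p = 0.470). Idh1, the cytosolic NADP-dependent isocitrate dehydrogenase, read 10.30 and 10.24 in Tg islets, against 10.46 and 10.51 in WT islets (difference -0.22, 95% interval -0.47 to 0.04, adjusted p = 0.494). Both genes had Tg arrays below the WT arrays, and neither passed.

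Glud1, glutamate dehydrogenase, which feeds glutamate carbon into the cycle as alpha-ketoglutarate, read 10.40 and 10.46 in Tg islets, against 10.51 and 10.55 in WT islets (difference -0.10, 95% interval -0.36 to 0.15). Aco1, the cytosolic aconitase that doubles as an iron regulatory protein, differed by -0.17 with groups that did not overlap. Pck1, the cytosolic carboxykinase, read 5.30 and 5.48 in Tg islets and 5.36 and 5.19 in WT islets. It lay below the median level of all genes, and the groups overlapped (difference 0.11, 95% interval -0.20 to 0.41). The median difference of the 11 genes was -0.13, with 9 (81.8%) lower in Tg, against 54.3% of all genes, and 7 (63.6%) lower without overlap, against 23.7%.

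For pyruvate entry the groups were close. Pdha1, the catalytic alpha subunit of pyruvate dehydrogenase, read 8.99 and 8.98 in Tg islets, against 9.09 and 9.08 in WT islets (difference -0.10, 95% interval -0.35 to 0.15, limma adjusted p = 0.791). Dlat, the acetyltransferase core of the complex, differed by -0.16. In both genes the Tg arrays lay below the WT arrays by a margin wider than their replicate gaps. Pdhb, the beta subunit, differed by 0.09 with overlapping groups, Tg replicate 2 being the high array. Mpc1, a subunit of the mitochondrial pyruvate carrier, read 11.97 and 12.04 in Tg islets and 12.05 and 11.92 in WT islets (difference 0.02, 95% interval -0.25 to 0.29). Its dimmer second probeset differed by -0.12, and the mean of both probesets gave -0.05. The class median was -0.04 and lay between -0.08 and -0.0016 with an array left out.

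The 17 cycle enzyme subunits had a median difference of -0.03, and none had an unadjusted p under 0.05. Lower means in Tg were found for 13 of them (76.5%), against 54.3% of all genes. In 5 (29.4%) both Tg arrays lay below both WT arrays, against 23.7% of all genes, and in 2 (11.8%) both lay above, against 18.6%. Cs, citrate synthase, which starts the cycle, read 10.43 and 10.39 in Tg islets, against 10.51 and 10.64 in WT islets (difference -0.17, 95% interval -0.44 to 0.10, limma adjusted p = 0.618). Ogdh, the catalytic first subunit of alpha-ketoglutarate dehydrogenase, read 10.92 and 10.83 in Tg islets, against 10.81 and 10.71 in WT islets. The groups did not overlap, but their nearest arrays lay closer together than the replicates did (difference 0.12, 95% interval -0.15 to 0.38, adjusted p = 0.754). Its partners in that complex, Dlst and Dld, differed by -0.11 and 0.06.

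In succinate dehydrogenase, which is also complex II of the respiratory chain, the membrane anchor Sdhd read 10.28 and 10.34 in Tg islets, against 10.21 and 9.93 in WT islets. The difference of 0.24 (95% interval -0.09 to 0.56, limma adjusted p = 0.560) was smaller than the gap between the WT arrays, 0.28, and it was 0.10 without WT replicate 2 and 0.38 without WT replicate 1. The other anchor, Sdhc, differed by -0.04, the iron-sulfur subunit Sdhb by -0.02 and the flavoprotein Sdha by -0.02. In succinyl-CoA ligase, Sucla2, the subunit that confers ADP specificity, read 7.96 and 7.96 in Tg islets, against 8.17 and 8.12 in WT islets. Its difference was -0.19 (95% interval -0.44 to 0.06, adjusted p = 0.546) with no overlap, while the GDP-specific Suclg2 and the shared Suclg1 differed by -0.02 and 0.01.

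The 3 subunits of NAD-dependent isocitrate dehydrogenase had overlapping groups, with differences of -0.12 for Idh3a, -0.02 for Idh3b and -0.03 for Idh3g. Idh2, the mitochondrial NADP-dependent enzyme, differed by -0.03. Fh1, fumarase, differed by -0.18, with Tg replicate 1 the low array. Mdh2, the mitochondrial malate dehydrogenase that closes the cycle, differed by -0.11 without overlap. The class mean was 10.17 and 10.24 on the Tg arrays and 10.27 and 10.21 on the WT arrays, so the groups overlapped. The class median moved to -0.09 without WT replicate 2 and to -0.10 without Tg replicate 2.

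Promoter sequences are shown for the gene with the largest difference and for 2 cycle enzymes whose windows hold a searched motif. RefSeq windows of 300 bases (GRCm38.p6, 250 before to 50 after a start site) were found for 37 of the 41 genes, 47 windows in all. The 5 motifs, searched on both strands, were TNAAGGTCA (estrogen-related receptors, partners of the coactivator PGC-1 alpha), the NRF1 motif, CCGGAAGT (ETS factors and GABP), TGACGTCA (CRE) and CACGTG (E-box). Capitals mark matches. The stretches end at the outermost start site, run along the gene's strand and were cut where a neighbouring gene begins (Styxl1 for Mdh2, Ccdc127 for Sdha).
Gpd2 (chr2:57237428-57237677, plus strand): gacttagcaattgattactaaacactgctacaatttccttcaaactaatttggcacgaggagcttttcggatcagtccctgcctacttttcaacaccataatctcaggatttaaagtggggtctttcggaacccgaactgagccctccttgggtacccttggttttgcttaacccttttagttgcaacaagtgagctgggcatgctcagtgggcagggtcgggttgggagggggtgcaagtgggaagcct
Mdh2 (chr5:135778425-135778648, plus strand): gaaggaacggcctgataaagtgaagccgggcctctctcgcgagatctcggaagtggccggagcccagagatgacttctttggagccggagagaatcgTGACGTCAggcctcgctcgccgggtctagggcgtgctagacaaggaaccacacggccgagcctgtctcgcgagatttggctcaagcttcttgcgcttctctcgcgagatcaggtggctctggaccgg
Sdha (chr13:74350241-74350316, minus strand): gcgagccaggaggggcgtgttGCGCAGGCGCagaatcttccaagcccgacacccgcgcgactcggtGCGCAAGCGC

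Neither window of Gpd2 held a match, nor did those of Me1 and Slc25a10. Matches were found in 10 of the measured genes, whose differences lay between -0.19 and 0.24. TNAAGGTCA was in 1 of the 47 windows (Sdhd), 2.13%, against 1.28% of all 32851 windows. The NRF1 motif was in 4 (Dld, Sdha, Sdhd and Sucla2), 8.51%, against 4.6%. CCGGAAGT was in 1 (Dlst), against 3.89% of all windows. TGACGTCA was in 4 windows of Mdh2 and Ogdh, 8.51%, against 1.79%, and the 3 of Ogdh share 1 site because its start sites lie close together. CACGTG was in 6 windows of Ogdh, Pcx, Slc25a1 and Slc25a13, 12.8%, against 7.15%, and 2 of the 3 Ogdh windows share 1 site. No match overlapped one of another motif. A match describes letters in a window, and no binding was measured here.

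Around these genes, 45 of 50 other genes of the pathway, its regulators and its amino acid links were measured. Of the 45, 1 rose and 1 fell at an adjusted p under 0.05, a limit that 0.897% of all genes passed. Lower means in Tg were found for 32 of the 45 (71.1%), against 54.3% of all genes, with a median difference of -0.08, against -0.02 over all genes. At an unadjusted p under 0.05, 5 of the 45 were lower and 1 was higher. Over all 22180 genes these were 1268 (5.72%) and 1359 (6.13%). Ogdhl, which encodes a second form of the Ogdh subunit, rose in Tg islets, where it read 10.90 and 10.82, against 10.10 and 9.88 in WT islets. The groups did not overlap (difference 0.87, SE 0.12, 95% interval 0.57 to 1.17; limma adjusted p = 0.049), a 1.83-fold higher level. The call is marginal: it was lost in 9 of 14 alternatives, among them each of the 4 arrays left out in turn, with adjusted p from 0.012 to 0.529, while the difference stayed between 0.77 and 0.98. Ogdh itself differed by 0.12, and whether the 2 genes differ in response was not tested.

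Ppargc1a, which encodes PGC-1 alpha, a coactivator of mitochondrial genes, fell to 5.49 and 5.53 in Tg islets, against 7.15 and 6.69 in WT islets (difference -1.41, SE 0.17; limma adjusted p = 0.035). Both Tg arrays lay below the median level of all genes, and the call was lost in 4 of 13 alternatives: without Tg replicate 1 (adjusted p = 0.206), without Tg replicate 2 (0.148), with the replicate block (0.145) and without moderation (0.542). Its relative Ppargc1b and the genes of its partner factors had no unadjusted p under 0.05, with the relative at -0.21, Esrra at -0.07, Esrrg at -0.32, Nrf1 at 0.04 and Gabpa at -0.10.

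Pdk4, a kinase that inactivates pyruvate dehydrogenase, read 8.87 and 9.12 in Tg islets, against 9.79 and 9.60 in WT islets (difference -0.70, 95% interval -1.04 to -0.36; limma adjusted p = 0.118). It did not pass, although both Tg arrays lay well below the WT arrays. The other kinases Pdk1, Pdk2 and Pdk3 differed by -0.15, -0.13 and 0.05. In all, 7 of the 8 genes of the kinases, phosphatases and the binding subunit Pdhx (87.5%) had lower means in Tg, against 54.3% of all genes. Glul, glutamine synthetase, read 10.68 and 10.62 in Tg islets, against 11.26 and 10.94 in WT islets (difference -0.45, adjusted p = 0.297), and a dimmer second probeset differed by -0.15.

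Slc25a22, a mitochondrial glutamate carrier, read 8.07 and 8.14 in Tg islets, against 8.38 and 8.37 in WT islets (difference -0.28, limma adjusted p = 0.386). Csl, a citrate synthase-like gene, read 4.88 and 4.74 in Tg islets, against 5.38 and 5.32 in WT islets (difference -0.54, adjusted p = 0.128), below the median level of all genes. Acly, which splits exported citrate in the cytosol, differed by 0.0020, and Nnt, the mitochondrial transhydrogenase, by -0.09. The 7 genes of lipoylation and complex II assembly had a median of 0.02 and none with an unadjusted p under 0.05.

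**Figure D3:**
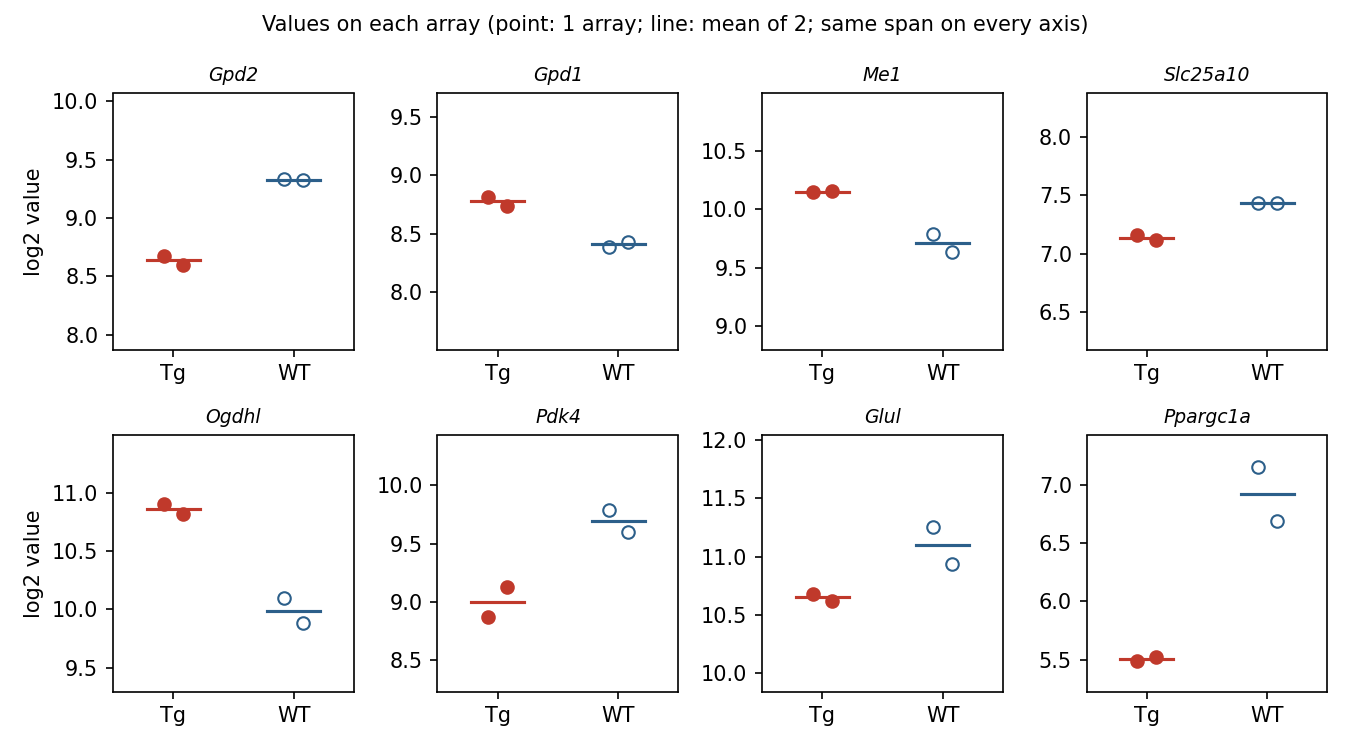
Log2 values on each array for 4 genes of the list with an unadjusted p under 0.05 (top) and 4 other pathway genes (bottom); each point is 1 array, lines are means of 2, Tg left in red and WT right in blue, with the same span on every axis. The groups are apart in all 8 panels, with Ogdhl, Gpd1 and Me1 higher in Tg and the other genes lower.

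Markers of some other cell types moved with the groups, beside the differences given above, while the acinar and duct lists overlapped. All 10 measured immune markers had higher means in Tg, and the log2 of their summed level was 11.50 to 11.81 in Tg and 10.63 to 10.82 in WT. Coro1a, an actin-binding protein of white blood cells, was the 1 immune marker to pass (difference 0.94, limma adjusted p = 0.031). Endothelial markers were higher for 7 of 7 (12.06 to 12.39 in Tg, 11.69 to 11.88 in WT), and mesenchymal markers for 8 of 8 (11.06 to 11.34 in Tg, 10.64 to 10.65 in WT). Of all genes, 10147 of 22180 had higher means in Tg. In 4 of the mesenchymal markers (50%) the groups did not overlap, against 18.6% of all genes higher without overlap. Dcn (1.79) and Pdgfrb (0.38) had an unadjusted p under 0.05, while Col1a1 (0.10), Col1a2 (0.07), Col3a1 (0.07) and Lum (0.03) overlapped. Of 6 adipocyte markers 5 were higher (9.31 to 9.74 in Tg, 8.69 to 8.90 in WT). Only Fabp4 had an unadjusted p under 0.05 (difference 1.07), and it was the brightest of the 6. It read 9.38 and 8.78 in Tg islets, against 7.84 and 8.18 in WT islets. Without overlap, 2 of the 6 (33.3%) were higher, against 18.6% of all genes, and 1 was lower. The fat cell hormone Adipoq lay at 4.46 and 4.45 in Tg islets and at 4.30 and 4.35 in WT islets. The 3 measured Schwann cell markers were mixed. Ngfr was higher in Tg (difference 1.23, limma adjusted p = 0.087), and Sox10 (-0.22) and S100b (-0.07) were lower.

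Endocrine markers other than beta were lower for 7 of 8 (15.35 to 15.36 in Tg, 15.48 to 15.62 in WT), while those of beta cells overlapped (14.80 to 14.87 in Tg, 14.79 to 15.00 in WT; 6 of 9 lower). Among all genes, 54.3% had lower means in Tg. Of the endocrine markers other than beta, 6 of 8 (75%) were lower without overlap, against 23.7% of all genes and 30.4% of genes above the median level. Etv1 (difference -0.94, limma adjusted p = 0.066), Irx2 (-0.86, 0.177) and Ttr (-0.45, 0.395) had an unadjusted p under 0.05. None of the 8 passed the adjusted limit, and Ppy was higher (0.06). Of the beta cell markers, 3 of 9 (33.3%) were lower without overlap, against 23.7% of all genes and 30.4% of genes above the median level. Among them were Ucn3, a peptide hormone of mature beta cells (difference -0.60, limma adjusted p = 0.170), and Slc30a8, the zinc transporter of insulin granules (difference -0.33, limma adjusted p = 0.407). Both had an unadjusted p under 0.05, and no beta cell marker passed the adjusted limit. Acinar markers overlapped, at 15.73 to 16.10 in Tg and 15.42 to 16.33 in WT, and so did 4 duct markers, at 9.89 to 10.03 in Tg and 9.38 to 10.48 in WT. Among the duct markers Cftr, a chloride channel, rose in Tg islets, where it read 7.80 and 7.75, against 5.13 and 5.83 in WT islets (difference 2.30, SE 0.23, limma adjusted p = 0.021), while the other 3 were lower with overlapping groups. No marker was at 0, which log2 array values do not reach, and the lowest value was that of the matrix gene Lum, 4.03. Their part in the differences of Gpd2, Gpd1, Me1, Slc25a10 and Ogdhl was not tested.

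**Figure D4:**
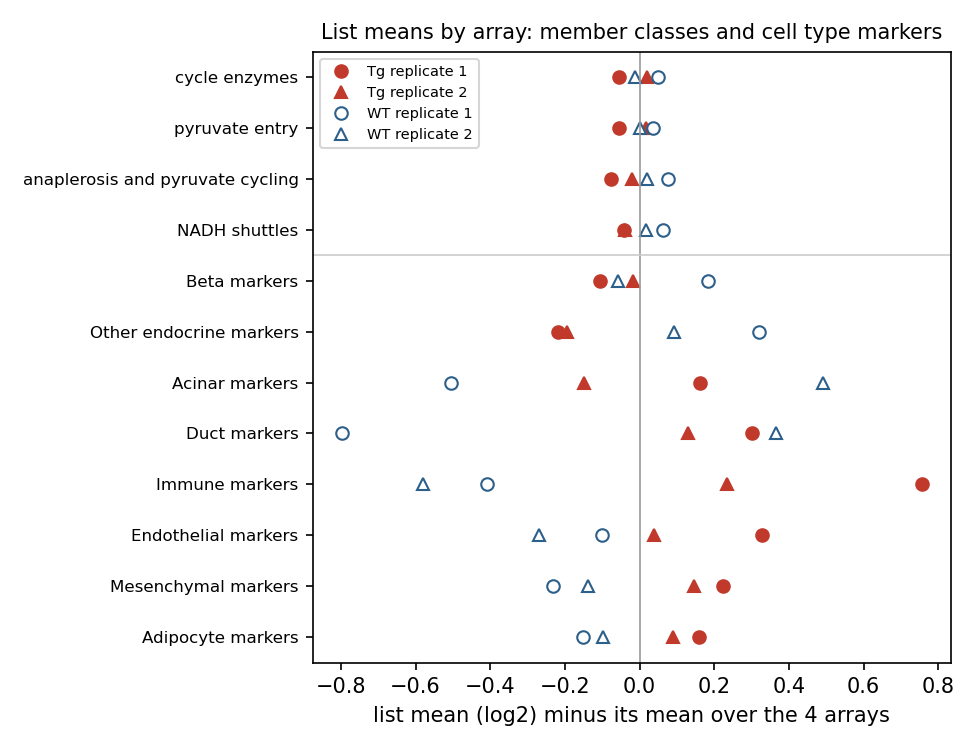
Mean log2 value of each list on each array, minus the list's mean over the 4 arrays, for the 4 gene classes (top) and 8 lists of cell type markers (bottom); filled red, Tg; open blue, WT; circles, replicate 1; triangles, replicate 2. The 4 classes spread over less than the marker lists, whose immune, endothelial, mesenchymal and adipocyte means are higher on both Tg arrays and whose acinar and duct means differ most between the WT arrays.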

How the data were processed

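Total RNA (250 ng) from islets was labelled and hybridised to the Mouse Gene 2.0 ST array of Affymetrix, per the labels' protocols. Values were deposited as log2 intensities, judging by their range, made with Partek and RMA (background correction, normalization between arrays and probe summary), which the submitters' processing notes name without a version. No build of the genome is named there. Of 27037 probesets, 23521 were paired with 1 symbol, 1814 with several and 1702 with none. Using the first kind, the brightest probeset per gene gave 22180 genes, with no filter. Differences were fitted with limma 3.58.1 (R 4.3.3; lmFit, eBayes) and adjusted over all genes by Benjamini-Hochberg. The 4 arrays left 2 residual degrees of freedom, to which moderation added 3.76; the smallest two-sided p of an exact permutation test of these 4 arrays is 0.333. The number of arrays limits the precision. The steps were tested on simulated data. Genes and lists were chosen with earlier results of these data known, so lists are described by counts and medians, without a test of their own. Per-array values and statistics were given for genes with an unadjusted p under 0.05, for the 10 largest differences and for a fixed set of key enzymes and carriers; other pathway genes were named with values by the same limit, and those given only as differences were added after their values were seen. Alternatives were other probeset rules, a level filter, normalization, variance models, a replicate block and each array left out.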

Additional observations from a re-analysis of the deposited data

How the results depend on the processing

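Every alternative was planned. With limma 199 genes passed the adjusted limit; a robust variance trend gave 347, the model without moderation 0 (1928 at an unadjusted p under 0.05) and the replicate block 24; with 1 array left out, 38 to 135 passed. Of the 40 genes described, 0 passed with limma (4 at an unadjusted p under 0.05), against 1, Gpd2, with the level filter, with the variance trend and with the robust trend, and 0 with any array left out. At an unadjusted p under 0.05 the 4 became 7 with the robust trend, 12 without moderation, and 2 to 4 with an array left out. Of all 22180 genes, 2627 had an unadjusted p under 0.05 with limma, 2737 with the robust trend and 1928 without moderation. The 30 genes lower in Tg were 23 to 33 with an array left out. The medians then lay between -0.10 and -0.019 for cycle enzymes, -0.08 and -0.0016 for pyruvate entry, -0.19 and -0.13 for anaplerosis and pyruvate cycling, and -0.13 and -0.070 for NADH shuttles. Of 22 genes of the list given with full statistics, 19 kept their sign in all alternatives. Mpc1 was at -0.051 with the mean of probesets and between -0.044 and 0.086 with an array left out, Slc25a1 then lay between -0.082 and 0.029, and Slc25a11 between -0.19 and 0.0057. For these, the cause was not tested. With the replicate block, 4 of the 40 had an unadjusted p under 0.05, against 2279 of all 22180 genes. Over all genes, the replicate difference in Tg correlated with that in WT at -0.063, and the labels do not say that a number marks a shared litter or day, so the samples share only a number. With 1 array in a group, that array is assumed to vary like the others.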
